A study of Mus musculus with 71 samples.

Results

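The genes described here are 10 members of the BMP and Nodal branches of the TGF-beta superfamily: the ligand genes Bmp2, Bmp4, Bmp6, Bmp7, Gdf6 and Nodal, and the antagonist genes Nog, Chrd, Grem1 and Fst. They were chosen by name, and every deposited peak annotated to one of them with its centre within 10 kb of the transcription start was taken. This gave 107 of 72567 peaks over 9 peak tables. The study mapped CBX7, RING1B and H3K27me3 in mouse J1 embryonic stem cells (ESC). It mapped RING1B and H3K27me3 in neural progenitor cells (NPC) made from them, and RING1B in embryoid bodies (EB). CBX7 and RING1B are subunits of Polycomb repressive complex 1 (PRC1), a repressor of developmental genes, and H3K27me3 is the histone mark that PRC2 makes and that the chromodomain of CBX7 binds.

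The cells carried CBX7-CaPS, CBX7-mCaPS or wild-type (WT) CBX7. Per the series title, the introduced domain is one found in Polycomb proteins of committed cells; the meaning of the letters, and whether each line was 1 clone, are not given in the sources used here. All ESC were of the J1 line and were grown with LIF on feeder fibroblasts (MEFs). Feeders were removed before either differentiation. NPC were aggregates given retinoic acid after 4 days and collected on day 6 or 8, and EB were collected on day 10. CaPS and WT were each represented by 3 libraries for CBX7 ChIP and 3 for RING1B ChIP in ESC, by 2 for H3K27me3 ChIP in ESC, by 2 for RING1B ChIP in day-8 NPC, and by 2 for RING1B ChIP at each stage (ESC, day 6, day 8) of a time course. CUT&RUN, which cuts DNA around a bound antibody without cross-linking, was available as 1 library each of CaPS and WT for RING1B in day-10 EB and for H3K27me3 in ESC, and of mCaPS, CaPS and WT for RING1B in ESC. H3K27me3 ChIP in day-8 NPC was deposited as 1 column each for CaPS and WT. The headers call these columns pooled, while the sample labels list 1 library for each genotype.

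Bone morphogenetic proteins and Nodal are secreted dimers that bind paired type I and type II serine/threonine kinase receptors. BMPs signal through Smad1, Smad5 and Smad9, Nodal through Smad2 and Smad3, and both need Smad4. Noggin, chordin and gremlin trap BMPs outside the cell, and follistatin, the product of Fst, traps activins and some BMPs. In mouse ESC, BMP4 helps maintain self-renewal, while neural induction in the embryo needs BMP and Nodal signalling to be blocked. The measurements are protein or mark occupancy, not expression. Cells without the protein at a site and less of it per cell cannot be told apart in such bulk samples.

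Values are tags in a peak per 10 M tags of the library (tags per 10 M). Header totals were 2.01 to 49.13 M tags per library, so that an observed 0 allows up to 0.611 to 14.9 tags per 10 M; these floors and the intervals given later cover counting error only. The share of tags inside the peaks of a table differed between groups. For CBX7 in ESC it was 2.63% to 7.1% in CaPS and 5.57% to 17% in WT. For RING1B in ESC it was 3.47% to 8.34% in CaPS and 6.57% to 19.3% in WT. Experiment 2 held the highest share in WT for both proteins. In the time course the CaPS day-6 library of experiment 5 had 12.1% of its tags in peaks, against 6.59% in the WT library of the same day and experiment.

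Peaks lay at or near the start of nearly every member in ESC, with Nodal as the exception. The CBX7 and RING1B ChIP tables of ESC, which list the same intervals, held peaks of 9 members and none of Nodal. RING1B CUT&RUN in ESC gave the same 9 members. H3K27me3 ChIP and H3K27me3 CUT&RUN in ESC held 8 members, without Nodal and Chrd. Nodal, the ligand that patterns the early embryo along its axes, had peaks in the tables that include differentiated cells: RING1B in day-8 NPC, H3K27me3 in day-8 NPC, RING1B CUT&RUN in day-10 EB and the RING1B time course. Chrd, the BMP antagonist of the node, had the opposite pattern of listing, with RING1B peaks in ESC and none in day-8 NPC or day-10 EB. It had no H3K27me3 peak in day-8 NPC either, and H3K27me3 was not mapped in EB. All 10 members had a peak in the time course table. Of the 10 member peaks of RING1B in ESC, 8 overlapped an H3K27me3 ChIP peak of ESC and 9 an H3K27me3 CUT&RUN peak by at least 1 base. Of the 15 member peaks of RING1B in day-8 NPC, 14 overlapped an H3K27me3 peak of day-8 NPC and 13 a RING1B peak of ESC.

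**Figure D1:**
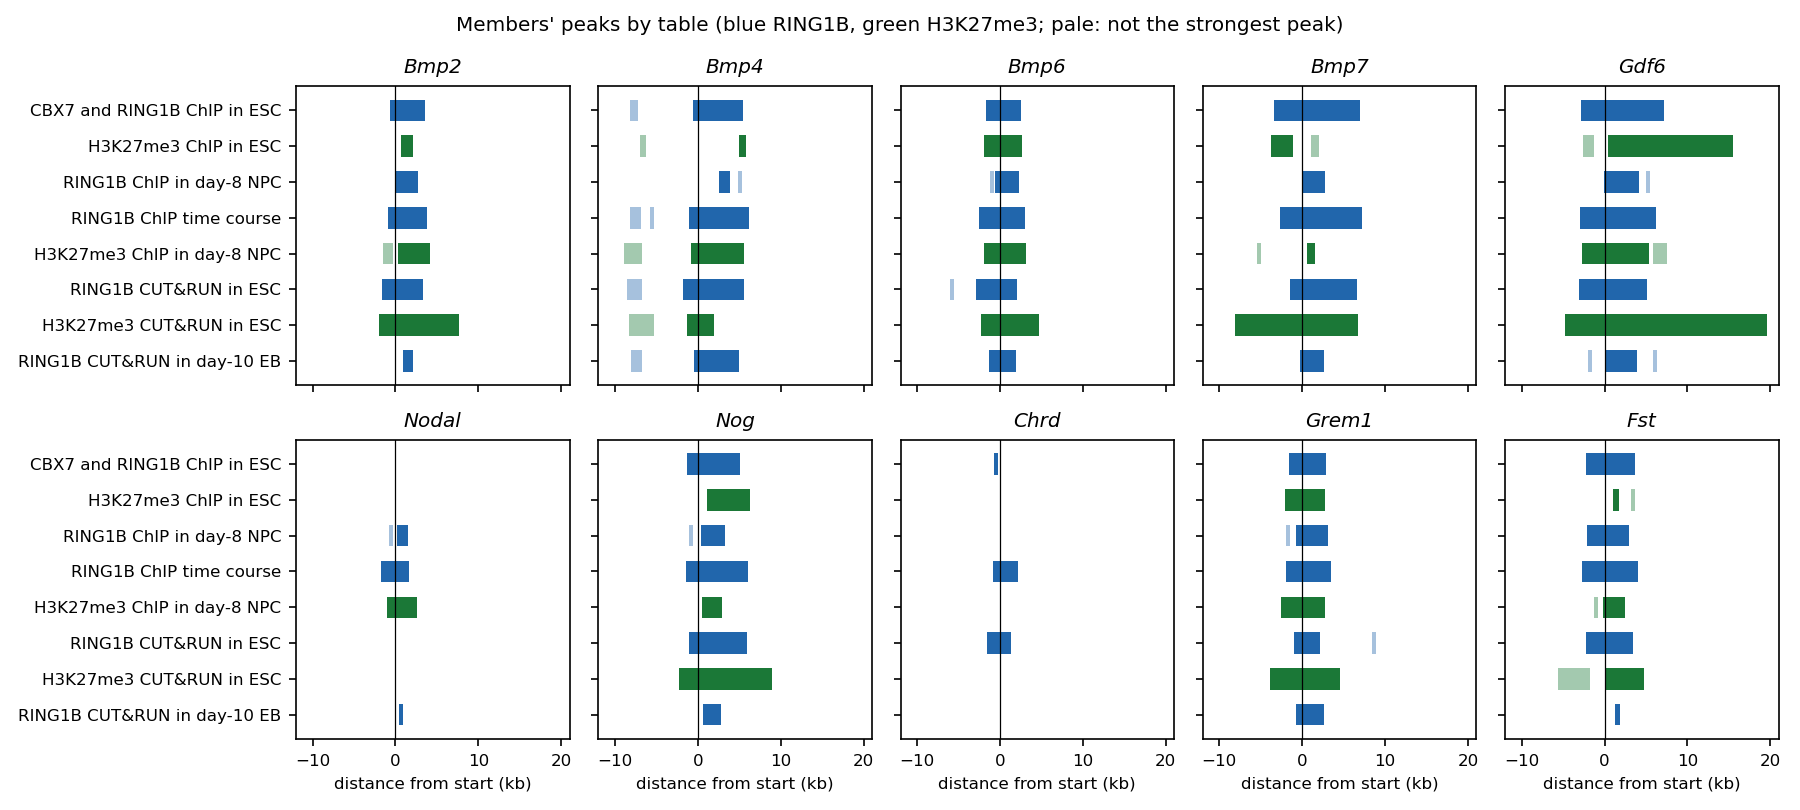
Position and length of each member's peaks by peak table, in kb from the transcription start along the gene's own direction (0 is the start, black line). The CBX7 and RING1B ChIP tables of ESC, which list the same intervals, share 1 blue row, and every other table has its own. Blue bars are RING1B and green bars H3K27me3, pale bars are peaks other than the strongest; the Gdf6 H3K27me3 CUT&RUN peak of ESC spans 24.41 kb, and Nodal has no bar in any table made from ESC alone.

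The RefSeq promoter table (GRCm38.p6, the mm10 build) held an entry for 5 members, Bmp4, Bmp6, Chrd, Grem1 and Nodal. Of these, Bmp4, Grem1 and Bmp6 had a peak in all 9 tables. The 250 bases before the start are shown for Nodal, which had no peak in the ESC tables, and for Grem1 and Bmp6. They are written 5′ to 3′ on the gene's strand, with each CG dinucleotide in capitals. Nodal is at chr10:61417722-61417971 on the plus strand, Grem1 at chr2:113758649-113758898 on the minus strand and Bmp6 at chr13:38345466-38345715 on the plus strand.
Nodal: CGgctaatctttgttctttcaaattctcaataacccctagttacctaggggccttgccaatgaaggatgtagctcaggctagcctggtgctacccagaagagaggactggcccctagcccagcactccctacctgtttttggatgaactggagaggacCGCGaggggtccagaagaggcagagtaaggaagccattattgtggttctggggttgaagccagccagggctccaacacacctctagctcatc
Grem1: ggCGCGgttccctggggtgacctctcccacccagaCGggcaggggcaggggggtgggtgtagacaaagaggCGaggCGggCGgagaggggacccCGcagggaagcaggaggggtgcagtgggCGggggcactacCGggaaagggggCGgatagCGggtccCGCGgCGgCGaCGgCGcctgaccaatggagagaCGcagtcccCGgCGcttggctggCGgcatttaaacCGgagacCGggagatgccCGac
Bmp6: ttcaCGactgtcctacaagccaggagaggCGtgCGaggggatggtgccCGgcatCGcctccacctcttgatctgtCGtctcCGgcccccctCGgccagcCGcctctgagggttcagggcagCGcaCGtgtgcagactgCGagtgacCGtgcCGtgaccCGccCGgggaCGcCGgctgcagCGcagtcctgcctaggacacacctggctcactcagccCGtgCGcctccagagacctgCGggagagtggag
CG, which reads the same on both strands, occurred 3 times in the Nodal window, 24 times in that of Grem1 and 22 times in that of Bmp6. Of the 32851 promoter windows of the same length in the table, 71% held at least 3 CG, 12% at least 24 and 14.8% at least 22; the median was 6. The Chrd window held 28 and the Bmp4 window 11, counts reached by 7.61% and 35.6% of all windows. The Nodal window lay whole inside the time course RING1B peak and the day-8 H3K27me3 peak, while the day-8 RING1B peaks of Nodal lay on either side of it. The Grem1 and Bmp6 windows lay whole inside a peak of every table. The Bmp4 window lay outside the H3K27me3 ChIP peaks of ESC and the RING1B peaks of day-8 NPC. In every other table it lay whole inside a peak.

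Per length, Bmp6, Fst, Grem1 and Gdf6 had the highest RING1B levels in WT in the ESC table, and Chrd the lowest of the members with a peak. Gdf6 encodes a BMP-family ligand needed for joint and eye development; its RING1B peak in ESC, chr4:9841538-9851538, was 10 kb long and covered the start and part of intron 1. In that table RING1B averaged 62.9 tags per 10 M per kb in CaPS and 110 in WT at Gdf6, against 49.3 in CaPS and 114 in WT at Grem1. Bmp6 had 64.8 in CaPS and 134 in WT, and Fst 61.1 in CaPS and 115 in WT. The WT libraries of each of these 4 peaks spread over a wider range than the means of the 4 do, so their order is not resolved. Bmp4 had 36 in CaPS and 56.3 in WT. The order depends on the intervals: in the time course, whose Chrd peak is 3.03 kb long, WT ESC held 43.8 tags per 10 M per kb at Chrd, above Nog with 38.6, Bmp4 with 28.7 and Nodal with 8.52. The Chrd peak in the ESC table was 0.5 kb long and held 15.3 tags per 10 M per kb in CaPS and 28.9 in WT; it rested on 0.5 to 29 tags per library in CaPS and 7 to 16.5 tags in WT.

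At 8 of the 9 members with a peak, CaPS ESC were called lower in CBX7 than WT ESC, and at none higher (limma, Benjamini-Hochberg adjusted p under 0.05 over all peaks). This is to be read against all 6326 peaks, of which 44.3% were called lower by the same rule: the median log2 change of the members was -1.12, that of all peaks -0.85. All peaks include weak ones, while members are read by their strongest peak. Of the 3478 peaks with a mean of at least 10 tags per 10 M, 2666 were called lower, with a median of -1.03. Grem1, whose product binds BMP2, BMP4 and BMP7, had the largest change. It held 94.5, 287 and 135 tags per 10 M in CaPS in experiments 1, 2 and 3, against 283, 842 and 242 in WT. CaPS was the lower in each experiment, though the groups overlapped because experiment 2 was high in both. The log2 change of Grem1 was -1.32 (SE 0.27, adjusted p = 1.61e-05), which is 2.49-fold lower.

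Among the BMP ligands, Bmp6 (a BMP known for its part in iron balance) held 125, 468 and 160 tags per 10 M in CaPS, against 428, 941 and 273 in WT, a log2 change of -1.18 (SE 0.27, adjusted p = 0.000125). Bmp2, needed for heart and amnion formation, held 110, 251 and 112 in CaPS and 295, 627 and 190 in WT, a log2 change of -1.16 (SE 0.27, adjusted p = 0.000123). Both were lower in CaPS in all 3 experiments, by the least in experiment 3. Gdf6 held 282, 620 and 331 tags per 10 M in CaPS and 729, 1510 and 556 in WT, a log2 change of -1.13 (adjusted p = 0.000445). Bmp7, a ligand of kidney and eye development, changed by -1.09 (adjusted p = 0.000476). Bmp4 had the smallest change of those called, at -0.75 (SE 0.27, adjusted p = 0.0145): it held 106, 179 and 105 tags per 10 M in CaPS, against 227, 376 and 112 in WT, so that experiment 3 hardly differed. A second, weaker CBX7 interval lay upstream of Bmp4, with its centre at -7693 bases from the start, and gave a log2 change of -0.31 (SE 0.39, adjusted p = 0.559).

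Of the antagonists, Fst held 179, 411 and 231 tags per 10 M of CBX7 in CaPS, against 423, 1274 and 324 in WT. The log2 change of Fst was -1.12 (SE 0.28, adjusted p = 0.000332). Nog, which encodes noggin, changed by -0.98 (adjusted p = 0.00127). Chrd, with 1 to 28 tags per library in CaPS and 6.5 to 11 in WT, did not pass (log2 change -0.67, SE 0.52, adjusted p = 0.307). The members' calls rest on pairing libraries by experiment: with no replicate block 0 of the 9 were called, without experiment 1 only Grem1 and without experiment 2 Bmp6 and Grem1 were called. With every library scaled to the same sum over the peaks, the median change of all peaks became 0.11, no member was called, and Bmp4, Nog and Chrd stood at or above 0 (0.3, 0.07 and 0.27).

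In the ESC table RING1B had negative log2 changes at all 9 members, as at 89.4% of all peaks, and 0 members passed the test. The background was 0.142% of the 6326 peaks called lower; 6 of the 9 members had an unadjusted p under 0.05, as had 18.6% of all peaks, and edgeR's quasi-likelihood test on the recovered reads called 0. The median of the members was -0.86 and that of all peaks -0.67. Grem1 had the largest change of the well-covered members, with 118, 252 and 275 tags per 10 M in CaPS against 277, 752 and 458 in WT (log2 change -1.18, SE 0.38, adjusted p = 0.113); it was the 1 member whose groups did not overlap, where 8.19% of all peaks had every CaPS library below every WT library. Nog had the smallest, with 191, 402 and 262 in CaPS against 334, 724 and 263 in WT (-0.55, SE 0.38, adjusted p = 0.416). Experiment 3 stood apart from the others: there Bmp4 held 309 tags per 10 M in CaPS and 215 in WT, and Nog 262 in CaPS and 263 in WT. Without experiment 3, 8 of the 9 members were called lower, and 1098 of all peaks. The time course holds ESC of experiment 3 too, and of experiment 5, which the ESC table lacks. In experiment 3 CaPS exceeded WT there at 3 of 10 members (median ratio 0.873) and at 58.6% of all peaks (1.12). In experiment 5 CaPS exceeded WT at 6 of 10 members (median ratio 1.22) and at 46.9% of all peaks (1.0). Whether the change of CBX7 exceeded that of RING1B was tested as an interaction. Of the members 0 were called and 0 had an unadjusted p under 0.05; the share of all peaks called was 0%, and edgeR called 0. The difference ran from -0.43 at Nog to 0.42 at Chrd.

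**Figure D2:**
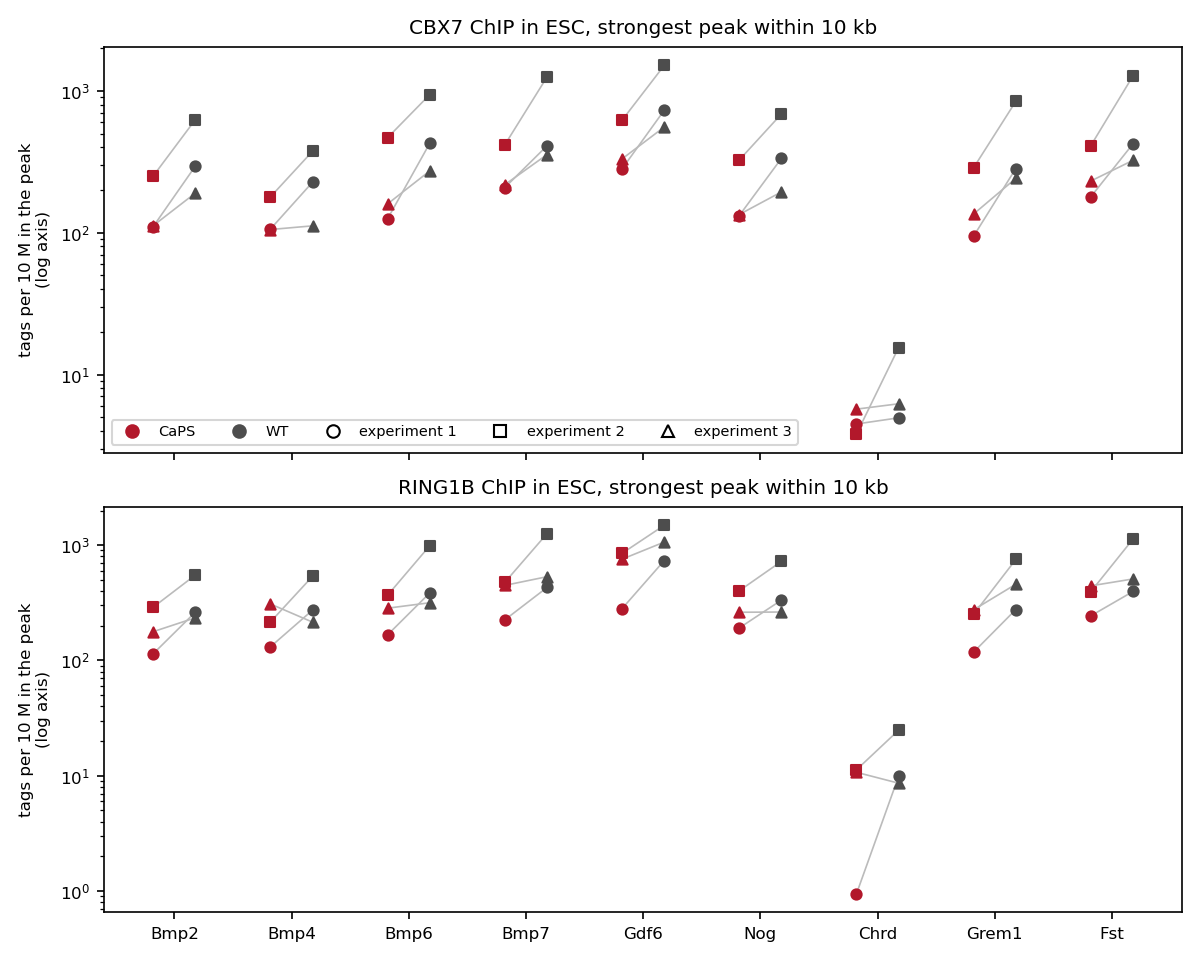
CBX7 (top) and RING1B (bottom) in ESC at the strongest peak of each member, in tags per 10 M on a log axis, CaPS left of WT, lines joining the libraries of an experiment. For CBX7 every line runs up from CaPS to WT; for RING1B those of Bmp4 and Chrd in experiment 3 run down and that of Nog in experiment 3 is flat.

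In RING1B CUT&RUN of ESC, 1 library for each genotype, the 9 members were also lower in CaPS than in WT, as were 88.5% of all peaks. A ratio with no replicate check is given here, with a 95% interval for counting error (exact conditional binomial). At Gdf6 the CaPS library held 129 tags per 10 M and the WT library 279, a ratio of 0.462 (0.382 to 0.556). Gdf6 was the 1 member of 9 past 2-fold, where 27.2% of all peaks were, and the members' median ratio of 0.62 stood beside 0.631 over all peaks. Fst was at the other end, with 127 tags per 10 M in CaPS and 155 in WT, a ratio of 0.821 (0.667 to 1). The interval lay under 1 for 8 of the 9 and for 33.9% of all peaks; it is narrower at strong peaks.

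The mCaPS library was lower still. All 9 members were past 2-fold below WT, as were 51.3% of all peaks, with a median ratio of 0.373 for the members and 0.493 for all peaks. Gdf6 held 72.8 tags per 10 M in mCaPS and 279 in WT, a ratio of 0.261 (0.206 to 0.332). Set against CaPS, mCaPS was lower at all 9 members, as it was at 70.3% of all peaks. Its interval was under 1 at 7 members and at 12.3% of all peaks. Past 2-fold lower were 2 members, Fst and Grem1, and 13.9% of all peaks. Fst held 56.9 tags per 10 M in mCaPS and 127 in CaPS, a ratio of 0.448 (0.326 to 0.601). Grem1 held 39.7 in mCaPS and 81.6 in CaPS, a ratio of 0.486 (0.331 to 0.698). Bmp4 was least changed, with 84.7 in mCaPS and 110 in CaPS, a ratio of 0.768 (0.582 to 1.01). The share of tags in peaks was 2.07% in mCaPS, 3.01% in CaPS and 4.61% in WT, and its part in these ratios was not tested. After scaling to the same sum over peaks, none of the 9 was past 2-fold in any of the 3 comparisons.

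H3K27me3 ChIP in ESC gave no call at the members. There, 0 of 8 members passed the test and the share of all 9195 peaks called in either direction was 0%; 1 member had an unadjusted p under 0.05, as had 1.1% of all peaks, and edgeR called 0. Gdf6 lay in a 15.12 kb peak with 396 and 457 tags per 10 M in CaPS in experiments 1 and 5, against 327 and 621 in WT (log2 change -0.08, SE 0.51, adjusted p = 1). CaPS was the higher in experiment 1 and the lower in experiment 5. The same crossing was seen at Bmp2, Bmp7, Nog and Grem1. Bmp4 was the member with the unadjusted p under 0.05, at a weak peak 5366 bases downstream of the start: it held 23.6 and 13.3 tags per 10 M in CaPS and 6.53 and 9.13 in WT (log2 change 1.11, SE 0.52). In H3K27me3 CUT&RUN, 1 library for each genotype, 7 of 8 members were higher in CaPS than in WT, as were 72.9% of all peaks, with the interval above 1 at 5 members and at 34.9% of all peaks. Bmp4 had 75.2 tags per 10 M in CaPS and 48.5 in WT, a ratio of 1.55 (1.16 to 2.13), and Bmp2 had 276 in CaPS and 197 in WT, a ratio of 1.4 (1.2 to 1.63). By its strongest peak Fst was the exception, with 73.3 in CaPS and 96.5 in WT, a ratio of 0.76 (0.586 to 0.973). The weaker peak of Fst had a ratio of 1.01 (0.744 to 1.37), and that of Bmp4 a ratio of 1.86 (1.28 to 2.66). None of the 8 was past 2-fold, against 5.64% of all peaks in either direction, and the median ratio of the members was 1.27 beside 1.18 over all peaks. The share of tags in peaks was 7.32% in CaPS and 5.83% in WT, and its part in these ratios was not tested. After scaling to the same sum over peaks, the ratio was 1.23 at Bmp4, 1.11 at Bmp2, 1.03 at Grem1 and 1.02 at Nog. It was 0.999 at Gdf6, 0.945 at Bmp6, 0.837 at Bmp7 and 0.605 at Fst.

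During neural differentiation RING1B was called lower at 8 of 10 members by day 8 in WT, and higher at Nodal. The background was 20.9% of 15091 peaks called lower and 1.73% called higher; the members' median log2 change was -1.88, that of all peaks -0.61. In CaPS 8 of 10 members were called lower and none higher, where 14.1% of peaks were called lower and 1.63% higher. The medians in CaPS were -1.32 for the members and -0.48 for all peaks. Of the 6574 peaks with a mean of at least 10 tags per 10 M, 3142 were called lower in WT (median -1.04) and 2192 in CaPS (median -0.75). Grem1 shows the common course. In CaPS it held 274 and 347 tags per 10 M in ESC, 141 and 297 at day 6 and 89.8 and 173 at day 8, in experiments 3 and 5. In WT it held 467 and 401 in ESC, 159 and 214 at day 6 and 84.2 and 103 at day 8. Day 8 lay below ESC in every experiment of both genotypes, with log2 changes of -1.3 in CaPS (SE 0.36, adjusted p = 0.0034) and -2.2 in WT (SE 0.36, adjusted p = 2.53e-08).

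Chrd had the largest fall in WT, with a log2 change of -2.31 (SE 0.39, adjusted p = 8.67e-08), from a 3.03 kb peak that also overlaps Thpo, the neighbouring thrombopoietin gene. At Chrd RING1B held 31.2 and 37.2 tags per 10 M at day 8 in CaPS, against 105 and 114 in CaPS ESC. In WT it held 21.2 and 31.4 at day 8, against 150 and 115 in ESC. Bmp7 had the largest fall in CaPS, -2.03 (SE 0.36, adjusted p = 8.45e-07), beside -2.08 in WT (adjusted p = 1.65e-07). Gdf6 had log2 changes of -1.97 in CaPS and -1.86 in WT, and Bmp6 of -1.51 in CaPS and -2.1 in WT. Bmp2 had -1.33 in CaPS and -1.91 in WT, and Nog -1.09 in CaPS and -1.77 in WT. The 8 members called lower included Bmp4 and not Fst in CaPS, and Fst and not Bmp4 in WT. Their highest adjusted p was 0.0181, that of Nog in CaPS. With no replicate block, 4 members were called lower by day 8 in CaPS and 8 in WT.

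Bmp4 fell in CaPS (log2 change -1.24, SE 0.36, adjusted p = 0.00576) and did not pass in WT (-0.64, SE 0.36, adjusted p = 0.197). It held 322 and 389 tags per 10 M in CaPS ESC, 180 and 304 at day 6 and 116 and 192 at day 8; in WT it held 235 and 181 in ESC, 206 and 262 at day 6 and 94.4 and 185 at day 8. The day-8 levels of both genotypes overlapped. CaPS stood above WT in the ESC of these experiments, while in the ESC table experiments 1 and 2 had CaPS below WT at Bmp4 (131 and 216 tags per 10 M in CaPS, 274 and 538 in WT). A separate intergenic RING1B peak of 1.34 kb lay upstream of Bmp4, with its centre at -7507 bases from the start. It held 11.4 and 7.83 tags per 10 M at day 8 in CaPS, against 41.8 and 53.7 in CaPS ESC (log2 change -2.21, SE 0.47, adjusted p = 9.01e-05), and changed by -0.89 in WT (adjusted p = 0.174). A very weak peak between them, with 0 to 10.5 tags per library, passed no test in any comparison.

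Nodal went the other way. In CaPS it held 37.5 and 72.3 tags per 10 M in ESC, 69.9 and 147 at day 6 and 67.5 and 136 at day 8. In WT it held 15.1 and 42.2 in ESC, 32.4 and 44.8 at day 6 and 49.5 and 69.3 at day 8. Day 8 lay above ESC in every experiment of both genotypes, with a log2 change of 1.18 in WT (SE 0.38, adjusted p = 0.0133). In CaPS the change was 0.87 (SE 0.38, adjusted p = 0.11). The CaPS change minus the WT change at Nodal was -0.31 and did not pass (limma's interaction term, SE 0.54, adjusted p = 0.937). The WT call was lost with no replicate block (adjusted p = 0.0963). CaPS was above WT at every stage in both experiments, by 1.36 to 3.27 times, and at day 6 the difference passed (log2 1.39, SE 0.38, adjusted p = 0.0165). Experiment 4 of the separate day-8 table went the other way, with 40.4 tags per 10 M in CaPS and 59.3 in WT at the stronger Nodal peak; at the weaker one its log2 difference was -1.71. Nodal was the 1 member of 10 called higher in CaPS at day 6, where 3.66% of all peaks were called higher. The day-6 log2 difference was positive at 9 of the 10 members, and negative at 31.3% of all peaks. The day-6 call was lost with no replicate block, by edgeR, and after same-sum scaling (log2 0.99, adjusted p = 0.0807).

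Fst, whose RING1B fell in WT, did not pass the test in CaPS. It held 465 and 519 tags per 10 M in CaPS ESC, 253 and 549 at day 6 and 319 and 602 at day 8, against 516 and 416 in WT ESC, 168 and 212 at day 6 and 140 and 221 at day 8. In WT day 8 lay below ESC in both experiments (log2 change -1.39, SE 0.37, adjusted p = 0.00133), a call that was lost after same-sum scaling (-0.25, adjusted p = 0.43). In CaPS the change was -0.16 (SE 0.37, adjusted p = 0.814), down in experiment 3 and up in experiment 5. The CaPS day-8 libraries were 2.28 and 2.73 times the WT ones. The difference between the changes was 1.23 (SE 0.52), with an unadjusted p under 0.05, as at 7.89% of all peaks, and an adjusted p of 0.511. This was the largest such difference among the members' strongest peaks, of which 0 of 10 passed; 0.272% of all peaks did, and edgeR called 0 members. In the separate day-8 table, experiment 4 showed no such gap at Fst, with 213 tags per 10 M in CaPS and 216 in WT, while experiment 3, which shares its samples with the time course, had 302 in CaPS and 124 in WT.

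**Figure D3:**
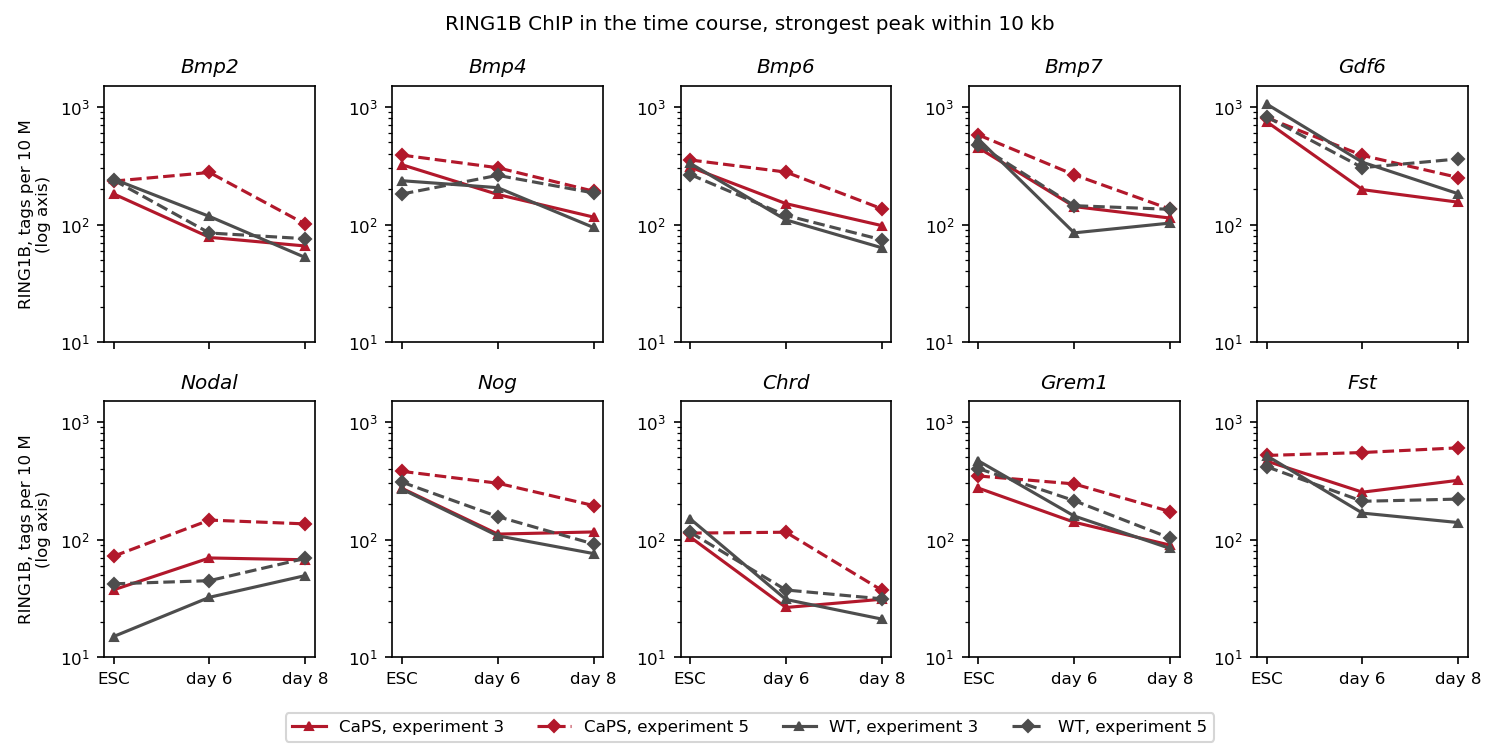
RING1B in the time course at the strongest peak of each member, in tags per 10 M on a log axis, CaPS in red and WT in grey, solid lines for experiment 3 and dashed lines for experiment 5. Lines run down in most panels, up in that of Nodal, and in that of Fst the CaPS lines end at 319 and 602, above the WT lines at 140 and 221.

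By day 6, 8 of 10 members were called lower in WT, where 14.6% of all peaks were called lower and 1.61% higher. In CaPS 2 were called lower, Bmp7 and Gdf6, where 5.06% of all peaks were called lower and 2.45% higher. Of the 10 members 9 had a negative change there, as had 55.8% of all peaks. An unadjusted p under 0.05 was found at 5 members, Nodal with its positive change among them, and at 23.2% of all peaks. Chrd stood at -0.96 and Nog at -0.81. Whether the day-6 changes differ between CaPS and WT was not tested. Of the 6574 peaks with a mean of at least 10 tags per 10 M, 2114 were called lower by day 6 in WT and 717 in CaPS. Bmp7 changed by -1.39 in CaPS (adjusted p = 0.00414) and by -2.17 in WT (adjusted p = 1.84e-07), and Gdf6 by -1.49 in CaPS (adjusted p = 0.0032) and by -1.53 in WT (adjusted p = 0.000796). With no replicate block, 0 members were called lower at day 6 in CaPS and 3 in WT. The experiments differed: in experiment 3 CaPS exceeded WT at 5 of 10 members at day 6 (median ratio 0.958, beside 1.1 over all peaks), and in experiment 5 at 10 of 10 (median ratio 2.12, beside 1.55); CaPS exceeded WT at 58.3% of all peaks in experiment 3 and at 65.5% in experiment 5. The high share of tags in peaks of the CaPS day-6 library of experiment 5 moved with this, and its part in the result was not tested. At Bmp2, for example, day 6 gave 77.8 and 277 tags per 10 M in CaPS and 117 and 84.7 in WT. Scaling to the same sum over peaks moved the median change of all peaks at day 8 to 0.13 in CaPS and to 0.36 in WT. Under it 4 members were called lower in CaPS by day 8, Bmp4 stood at 0.5 in WT and Fst at 0.54 in CaPS. Nodal was then called higher by day 8 in both genotypes. At day 6 in WT it left 3 members called lower and made 2 called higher, Bmp4 (1.04, adjusted p = 0.00036) and Nodal (1.42, adjusted p = 0.00145).

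At day 8 the direct comparison of CaPS with WT called 0 of 9 members in the RING1B day-8 table, 0 had an unadjusted p under 0.05, edgeR called 0, and the share of all 5393 peaks called in either direction was 0%. The pairs disagreed. Bmp6 held 60.6 and 87.2 tags per 10 M in CaPS in experiments 3 and 4, against 33.9 and 147 in WT, so CaPS was higher in the first and lower in the other. By its strongest peak, Gdf6 was the 1 member lower in CaPS in both, as were 38.4% of all peaks, with 99.7 and 130 tags per 10 M in CaPS against 138 and 211 in WT (log2 change -0.58, SE 0.87, adjusted p = 0.897). Fst had the largest value, 0.63 (SE 0.86, adjusted p = 0.882), and was called higher only after same-sum scaling (0.77, adjusted p = 0.0166).

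H3K27me3 at day 8, as pooled by the authors with no replicate check, was lower in CaPS at 8 of 9 members, as at 90.5% of all peaks, and past 2-fold at 4: Bmp2, Bmp4, Bmp7 and Gdf6. Over all peaks 54.5% were past 2-fold lower, and the median ratio was 0.566 for the members and 0.469 for all peaks. Bmp4 stood lowest, with 125 tags per 10 M in CaPS and 598 in WT, a ratio of 0.21. Gdf6 held 267 in CaPS and 876 in WT, a ratio of 0.305. Bmp6 held 278 in CaPS and 491 in WT (0.566), and Grem1 301 in CaPS and 512 in WT (0.587). Nearest to 1 were Nog, with 153 in CaPS and 142 in WT (1.08), and Fst, with 144 in CaPS and 159 in WT (0.904), followed by Nodal, with 266 in CaPS and 341 in WT (0.779). The CaPS column had 32.88 M tags with 8.2% in peaks and the WT column 4.47 M with 16.4% in peaks, and the part of this in the ratios was not tested. After same-sum scaling Bmp4 was past 2-fold lower (ratio 0.419) and Nog past 2-fold higher (2.15), with Fst at 1.8 and Nodal at 1.55; of all peaks 24% were then past 2-fold lower and 9.48% higher.

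In day-10 EB, RING1B CUT&RUN gave ratios of CaPS to WT between 0.676 and 1.6 at the strongest peaks of the 9 members with a peak. None was past 2-fold, against 24.2% of all peaks in either direction, and the interval of the ratio left out 1 at 2 members and at 14.4% of all peaks. Gdf6 held 106 tags per 10 M in CaPS and 135 in WT, a ratio of 0.789 (0.623 to 0.998), and Bmp7 held 65.4 in CaPS and 43.9 in WT, a ratio of 1.49 (1.04 to 2.13). Grem1 held 93.1 in CaPS and 93.5 in WT, a ratio of 0.996 (0.758 to 1.3). At Nodal, 9.76 in CaPS and 6.1 in WT rested on 12 and 7.5 tags and gave a ratio of 1.6 (0.564 to 4.23). Weaker peaks of Gdf6 were past 2-fold lower in CaPS, on few tags. The ratio was 0.281 (0.0784 to 1.1) on 3.5 tags in CaPS and 12.5 in WT at one, and 0.167 (0.0181 to 0.749) on 2 and 12 tags at the other. The weaker peak of Bmp4 had a ratio of 0.783 (0.425 to 1.37).

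**Figure D4:**
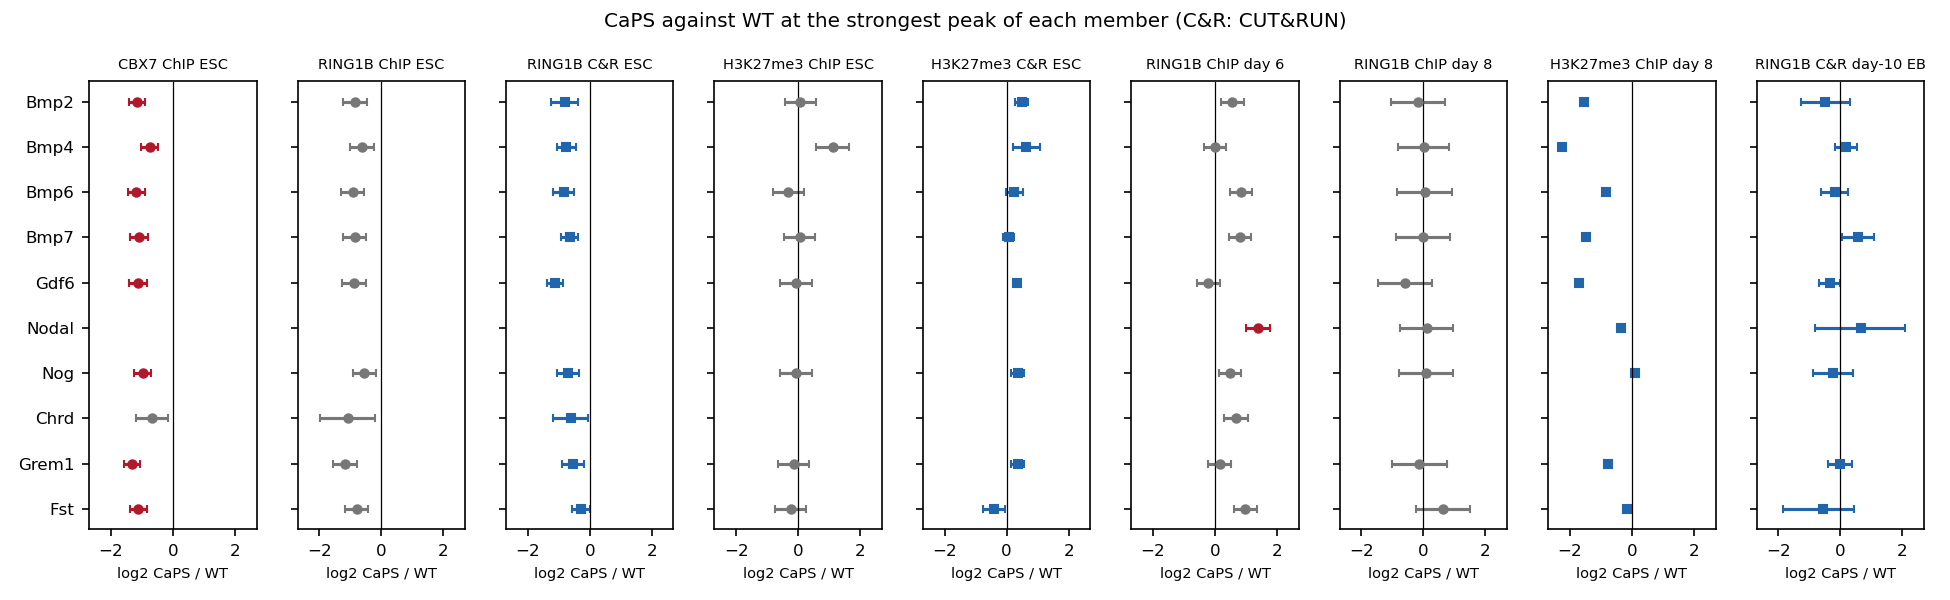
log2 ratio of CaPS to WT at the strongest peak of each member in 9 comparisons. Circles are limma estimates with their SE (red where called), squares single libraries with 95% counting intervals, and squares without bars the authors' pooled columns; CBX7 lies left of 0 at all 9 members, H3K27me3 ChIP in ESC lies within 0.32 of 0 except at Bmp4, and H3K27me3 at day 8 lies left of 0 except at Nog.

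Other genes of the pathway were counted by the same rule, their strongest peak within 10 kb. For CBX7 in ESC, 44.3% of all peaks were called lower in CaPS, and 2666 of the 3478 peaks with a mean of at least 10 tags per 10 M. Of the 46 other pathway genes with a peak, 38 were called lower and 0 higher (median -1.06 beside -0.85 for all peaks). These were 12 of 15 other ligands, 8 of 10 receptors and co-receptors, 6 of 7 other antagonists, 3 of 4 Smads and 9 of 10 targets and partners. The largest changes were those of Lefty1, a Nodal antagonist with a weak peak (-2.18, SE 0.59), Gdf7, a BMP-family ligand of the roof plate (-1.7, SE 0.27), the receptors Acvr1c (-1.65) and Acvrl1 (-1.6), and Id3, a BMP target (-1.57). In the time course, 17 of 54 were called lower by day 8 in CaPS and 2 higher, beside 14.1% and 1.63% of all peaks. In WT 27 were called lower by day 8 and 1 higher, beside 20.9% and 1.73% of all peaks. Of the 6574 peaks with a mean of at least 10 tags per 10 M, 2192 were called lower in CaPS and 3142 in WT. T (brachyury), a mesoderm gene, had a log2 change of -2.87 in WT, and Tdgf1, the Nodal co-receptor Cripto, rose by 2.43 in CaPS (SE 0.35, adjusted p = 1.55e-09). At day 6, 6 of 54 were called higher in CaPS than in WT and 0 lower, where 3.66% of all peaks were called higher. Tdgf1 was among the 6 (1.85, SE 0.35, adjusted p = 6.51e-05). In the other replicated comparisons of CaPS with WT (RING1B and H3K27me3 in ESC, RING1B at day 8, and the difference of the day-8 changes) limma called 0.

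Polycomb signal at marker genes was read in the same way, as occupancy and not as expression. Fell and rose mean here called lower and called higher. Pluripotency markers had a peak at 4 of 6 in the time course, of which 1 fell and 1 rose by day 8 in CaPS and 1 fell in WT (medians -0.77 in CaPS and -0.88 in WT). Neural progenitor markers had one at 5 of 5, of which 2 fell in CaPS and 3 in WT (medians -0.66 in CaPS and -1.62 in WT). Fibroblast markers were listed because ESC were grown on feeder fibroblasts, and RING1B at them does not measure the presence of feeders. They had a peak at 6 of 6, of which 3 fell in CaPS and 5 in WT (medians -0.81 in CaPS and -1.22 in WT, beside -0.48 and -0.61 over all peaks, of which 14.1% fell in CaPS and 20.9% in WT). Their part in the members' changes was not tested.

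Over the 12 libraries of the time course, the non-member gene whose strongest peak followed a member most closely (Pearson r of log2(value + 1) among 3673 genes, a description only, since the points share libraries and depth) was Mex3b for Bmp6 (r = 0.993), 6030419C18Rik for Bmp7 (0.991), Pou4f3 for Gdf6 (0.991), Atp8b1 for both Chrd (0.99) and Bmp2 (0.977), Gm4559 for Nog (0.989) and Drd4 for Grem1 (0.982). The lowest values were those of Nkain3 for Fst (0.959), Fam212b for Bmp4 (0.936) and Cnnm2 for Nodal (0.931).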

How the data were processed

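CBX7, RING1B and H3K27me3 were measured by ChIP-seq or CUT&RUN in the samples named above. The deposited values are normalised signal, tags per peak scaled to 10 M tags per library, and peaks refer to mm10, per the file headers. Tools listed in the submitters' processing notes are HOMER 4.10.4, SAMtools 1.9, Bowtie2 2.3.4.3 and cutadapt 1.14, with dm6 beside mm10 as a build. ChIP peaks were called over input and CUT&RUN peaks over IgG, per the series design text. Drosophila chromatin was added to ChIP samples, per the labels' protocols; the sources do not say if it entered the totals, so a change shared by all peaks depends on the scaling. Values times header totals gave whole read ends (0.5 tag) for 100% of values within 0.049 read ends. Each table was tested alone, and levels were not set across tables. Knockout libraries were not analysed here, and 2 columns that could not be tied to a sample were left aside.

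log2(value + 1) was tested with limma 3.58.1 (empirical Bayes with trend, R 4.3.3), two-sided, at a threshold of 0.05 after Benjamini-Hochberg adjustment across the whole table; the scale understates changes of weak peaks. The experiment number of the titles entered as a block, because the series design text says that comparisons were made between experiments done together. Libraries with the same number deviated from their group means with correlations of 0.04 to 0.3 for CBX7, -0.02 to 0.23 for RING1B in ESC, 0.09 for H3K27me3, 0.25 for day-8 RING1B and 0.06 to 0.22 in the time course. The prior degrees of freedom were infinite, so the error of a peak comes from peaks of like strength and not from its own libraries. Nothing says that libraries came from separate cultures, so this spread may be technical. Comparisons of 1 library each have no test; called there means past 2-fold, with intervals from SciPy 1.17.1. The scripts were tested on simulated data. Alternatives were no block, leaving out experiments, scaling to the same sum over peaks, a pseudocount of 5, a mean of at least 10, edgeR 4.0.16 on recovered reads, a window of 2 kb, 1.5-fold, and an overlap of 50% of the shorter peak. A member's value in a table is that of its peak with the highest mean. Other pathway genes are named if called, at most 5 by size of change in a comparison; Bmp4's weaker peaks, and the examples among those 5, were picked after their values were seen. Members and lists were chosen with earlier results of these data known.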

Additional observations from a re-analysis of the deposited data

Results flagged for a closer look

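At 3 members RING1B in CaPS stood below WT in ESC and above it at day 8 in both experiments of the time course, as it did at 9.5% of all peaks. The ESC gap was near nil in experiment 5 at Bmp2 (ratio 0.98) and Chrd (0.984), and day-8 experiment 4 went the other way, with log2 differences of -0.77 at Bmp2 and -0.44 at Grem1. The later difference minus the earlier one was 0.59 on the log2 scale at Bmp2 (means 0.36 at day 8 and -0.22 in ESC), 0.65 at Chrd (0.39 and -0.27) and 0.9 at Grem1 (0.42 and -0.49), beside a median of 0.2 over all peaks. The test of this difference, limma's interaction term, gave adjusted p-values of 0.824, 0.819 and 0.664, so none passed.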

How the results depend on the processing

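With no replicate block, calls of lower CBX7 in ESC were 2 of all peaks and 0 of the members, those of lower RING1B in ESC 0, those of RING1B at day 8 in either direction 37, and those of the difference of day-8 changes 1. In the time course it left, for day 8 in CaPS, 1197 lower and 125 higher, with 4 members lower; for day 8 in WT, 108 higher, with 0 members higher; for day 6 in CaPS, 246 lower and 114 higher, with 0 members; for day 6 in WT, 1247 lower and 79 higher, with 3 members lower; and for CaPS against WT at day 6, 153 higher, with 0 members. The block changed no other count of members called.

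Leaving out 1 experiment gave 1177 to 2759 peaks and 1 to 8 members called lower for CBX7 in ESC, and 0 to 1098 peaks and 0 to 8 members for RING1B in ESC. In the difference between both changes, Chrd ranged from -0.55 (without experiment 1) to 0.99 (without experiment 2) and Bmp4 from -0.32 (without experiment 2) to 0.1 (without experiment 3). Tables of 2 experiments allow no test without one of them.

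Scaling to the same sum over peaks gave 103 peaks and 0 members lower for CBX7 in ESC (Bmp4 0.3, Nog 0.07, Chrd 0.27), 3 lower for RING1B in ESC (Bmp4 0.16, Nog 0.23), 49 in either direction for H3K27me3 in ESC (Nog 0.01), and 435 with 1 member for RING1B at day 8 (Bmp7 0.12, Grem1 0.01). The difference between CBX7 and RING1B turned to 0.14 at Bmp4, 0.02 at Bmp6, 0.04 at Bmp7, 0.03 at Gdf6 and 0.13 at Grem1. For day 8 it gave 810 lower and 766 higher in CaPS, with 4 members lower and Nodal, 1 member, higher while Fst stood at 0.54, and 857 lower and 1351 higher in WT (Bmp4 0.5), where 6 members were lower and the calls of Nog (-0.63, adjusted p = 0.051) and Fst were lost. For day 6 it gave 496 lower and 842 higher in CaPS, with 1 member higher, and 605 lower and 1145 higher in WT, with 3 members lower and 2 higher. The difference of day-8 changes had 116 calls (Bmp7 -0.38), and CaPS against WT at day 6 had 247 higher with 0 members (Bmp4 -0.39, Grem1 -0.25). Among single libraries, members past 2-fold lower numbered 0 for CaPS against WT, mCaPS against WT and mCaPS against CaPS in ESC (mCaPS to WT ratios of 1.02 at Bmp4, 1.01 at Bmp7 and 1.04 at Chrd) and 1 for H3K27me3 at day 8. The H3K27me3 CUT&RUN ratios of ESC went below 1 at Bmp6 (0.945), Bmp7 (0.837) and Gdf6 (0.999) under the same scaling. At 1.5-fold, 7 members were lower in RING1B CUT&RUN of ESC in CaPS than in WT and 5 in mCaPS than in CaPS.

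A mean of at least 10 gave 40 lower for RING1B in ESC, and 123 and 146 higher at days 8 and 6 in WT. For CBX7 in ESC this filter kept 3478 peaks, of which 2666 were called lower. A pseudocount of 5 gave 421 higher at day 8 in WT, 668 higher at day 6 in CaPS and 856 higher in CaPS than in WT at day 6. edgeR gave 5 lower for RING1B in ESC, 172 and 104 higher at days 8 and 6 in WT, 198 higher at day 6 in CaPS, and 125 higher with 0 members for CaPS against WT at day 6. Within 2 kb, fewer members had a peak, and 5 at day 8 and 1 at day 6 were called lower in CaPS. The cause of these changes was not tested beyond what each setting fixes. Overlap counts did not change by over 1.5 times.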
